A study of Mus musculus with 4 samples.

Results

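The genes described here encode the structural and matricellular proteins of the extracellular matrix: collagens, laminins, fibronectin, thrombospondins, Sparc, periostin (Postn) and the small leucine-rich proteoglycans decorin (Dcn), lumican (Lum) and biglycan (Bgn). Members were chosen by gene symbol alone, as every symbol beginning Col, Lama, Lamb, Lamc or Thbs followed by a digit, together with Fn1 and the other single genes just named. Of 19938 named genes on the array, 64 were members: 44 collagen genes, 10 laminin genes, 4 thrombospondin genes, Fn1, Sparc, Postn, Dcn, Lum and Bgn. Spp1, the osteopontin gene, also belongs to the rule and was not analysed here.

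Gene expression was measured in macrophages grown from the bone marrow of C57BL/6J mice in serum-supplemented RPMI medium. GM-CSF M1 cells grew for 7 days with granulocyte-macrophage colony-stimulating factor, and the CD45+ MHCII+ CD8a- F4/80+ fraction was sorted from a mixed culture. M-CSF M2 cells grew for 7 days with 20% supernatant of the fibroblast line L929 as their source of macrophage colony-stimulating factor, and the CD45+ F4/80+ CD11b+ fraction was sorted. Each group had 2 arrays. Growth factor, L929 supernatant and sort gate differ together between the groups and cannot be told apart. The labels give neither age nor sex of the mice, and do not state whether the replicates of a group had separate sources. The p-values therefore cover the scatter among these 4 arrays, some of which may be technical.

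Collagens form the fibrils and sheets that carry load in connective tissue, laminins and type IV collagen form basement membranes, and fibronectin is a secreted glycoprotein that cells bind through integrins and assemble into fibrils. Matricellular proteins such as thrombospondins and Sparc sit in the matrix but mainly regulate adhesion, growth factors and matrix assembly. Fibroblasts and related stromal cells are the main makers of fibrillar collagen, whereas macrophages are best known for degrading and taking up matrix and for secreting particular components, fibronectin and thrombospondin-1 among them.

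Values are log2 expression values for 1 probe set per gene, and differences are GM-CSF M1 minus M-CSF M2. All 8 macrophage marker genes lay between 10.28 and 13.31 in every array, and array medians lay between 6.18 and 6.23. A level of 5.90, the mean over arrays of the 95th percentile of olfactory receptor genes, served as a background reference. It is not matched to the members in probe base composition, so a value above it does not by itself show a transcript. The first GM-CSF M1 array stood apart from the others in Xist, the non-coding RNA of the inactive X chromosome, at 11.58 against 4.93 in the second GM-CSF M1 array and 4.53 and 4.80 in the M-CSF M2 arrays. The Y-linked gene Eif2s3y read 3.66 in that array, against 9.10 in the second GM-CSF M1 array and 9.32 and 9.17 in the M-CSF M2 arrays. High Xist with low Eif2s3y is the pattern of female cells and the reverse that of male cells, so the 2 GM-CSF M1 arrays did not share the same source animal. Over all genes tested, the SD of the difference between the 2 arrays of a group was 0.33 for GM-CSF M1 and 0.18 for M-CSF M2.

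Of the 64 matrix genes, 61 passed the filter on dim genes and were tested with limma, with p-values adjusted over all 14995 genes tested. Fn1, Thbs1 and Dcn were higher in GM-CSF M1 cells, no matrix gene was lower, and 58 did not pass at an adjusted p of 0.05. The 3 called members are 4.92% of those tested, against 10.7% of all genes tested. By direction, all genes gave 6.18% higher and 4.53% lower. All 3 called members differed at least 2-fold. Thus 4.92% of members tested were called and differed by that much, against 4.23% of all genes tested. Before adjustment, 3 members were higher and 5 lower at p under 0.05, and those 8 compare with 25.5% of all genes. The arrays of the groups did not overlap for 19 of the 61 tested members (31.1%), against 55.4% of all genes. With each array left out in turn, the Fn1 difference was 4.55 to 4.98. That of Thbs1 was 1.09 to 1.29 and that of Dcn 0.72 to 1.41. The number of calls depended on the array left out, for members as for all genes, as given below. Lama4, Lum and Postn did not pass the filter on dim genes and have no test.

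**Figure D1:**
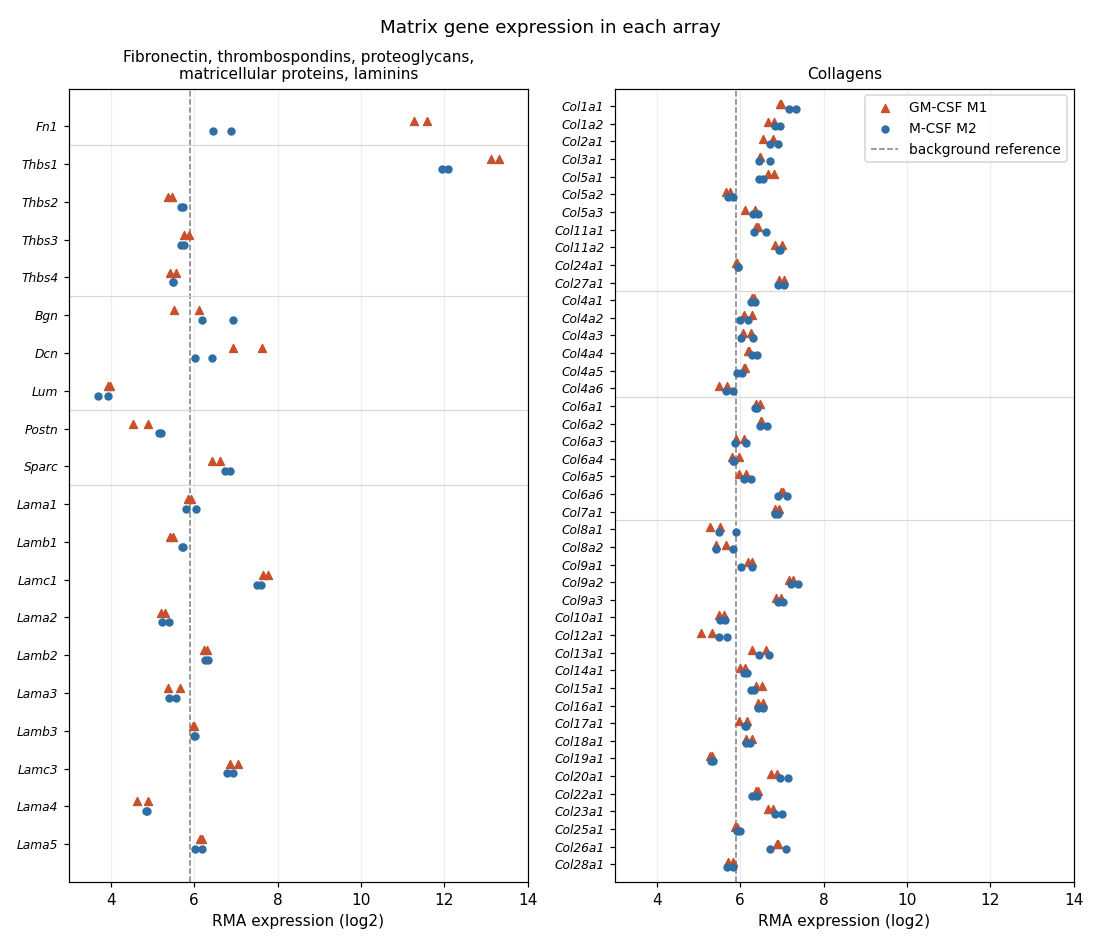
RMA expression (log2, horizontal axis) of each of the 64 matrix genes (rows, by class), with 1 triangle per GM-CSF M1 array and 1 circle per M-CSF M2 array; the dashed line is the background reference at 5.90. Fn1 is the gene whose groups lie widest apart, Thbs1 is the brightest, and the collagens lie between 5.06 and 7.38 in all 4 arrays.

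Fn1, the fibronectin gene, showed the widest separation of the set. Its probe set read 11.58 and 11.26 in GM-CSF M1 cells, against 6.87 and 6.44 in M-CSF M2 cells. Both GM-CSF M1 arrays were thus far above both M-CSF M2 arrays, with arrays of one group 0.32 apart in GM-CSF M1 and 0.43 apart in M-CSF M2. The log2 difference was 4.76 ± 0.18 (SE, n = 2 each; 95% interval 4.32 to 5.20), a 27.1-fold difference in level with an adjusted p of 0.000152 in limma. Among all 14995 genes tested, Fn1 ranked 10 from the top by difference. Leaving out each array in turn kept the call, with differences of 4.55 to 4.98, and without the first GM-CSF M1 array it was 4.60. In bulk RNA of sorted cells, more cells expressing a gene and more RNA per cell cannot be told apart. Fn1 has 1 probe set here, which summarises the gene and does not separate its splice forms.

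Thbs1, encoding thrombospondin-1, a trimeric glycoprotein that binds CD36 and CD47 and can activate latent transforming growth factor beta, was bright in both groups. It read 13.31 and 13.11 in GM-CSF M1 cells, against 12.08 and 11.94 in M-CSF M2 cells. The groups did not overlap, and the difference was 1.19 ± 0.12 on the log2 scale (SE, n = 2 each; 95% interval 0.89 to 1.49), or 2.29-fold, with an adjusted p of 0.00287. The highest deposited value of any probe set was 13.95, so Thbs1 lay near the top of the scale. The call was lost when the first or the second M-CSF M2 array was left out (adjusted p = 0.0587 and 0.0769), with differences of 1.09 to 1.29 over the 4 fits that each left out 1 array.

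Thrombospondin-1 is also made by megakaryocytes and stored in platelets, and marker genes of that lineage differed in both directions. Of 8 megakaryocyte and platelet markers listed, 5 were tested. The chemokine genes Pf4 and Ppbp were higher, by 1.88 and 3.75, and the platelet receptor subunit Gp9 was lower (difference -0.73). Itga2b and Gp5 did not pass (differences 0.30 and -0.31). Over all genes tested, 6.18% were higher and 4.53% lower. Pf4 read 12.16 and 11.01 in GM-CSF M1 cells, against 9.88 and 9.54 in M-CSF M2 cells, and Ppbp read 12.28 and 10.87 against 8.25 and 7.40. The mean over the 5 markers was 8.51 and 7.97 in the GM-CSF M1 arrays and 7.36 and 7.16 in the M-CSF M2 arrays. Without either M-CSF M2 array no marker of this list passed, and with trended and robust variances none passed as higher. Their part in the Thbs1 difference was not tested.

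The other thrombospondin genes were dim, with all group means below the background reference. Thbs2, which like Thbs1 encodes a trimer, read 5.38 and 5.46 in GM-CSF M1 cells, against 5.75 and 5.69 in M-CSF M2 cells, a difference of -0.29 ± 0.11 that did not pass (adjusted p = 0.144). Thbs3 and Thbs4, which encode pentamers, differed by 0.11 and -0.0045 and did not pass either. Within the family, the difference that passed was therefore that of Thbs1.

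Dcn encodes decorin, a proteoglycan that binds collagen fibrils and is typical of fibroblasts. It read 7.63 and 6.94 in GM-CSF M1 cells, against 6.42 and 6.03 in M-CSF M2 cells. The groups did not overlap, but the spread within GM-CSF M1 was 0.69, more than the gap of 0.52 between the nearest arrays of the groups. The difference was 1.07 ± 0.25 (SE, n = 2 each; 95% interval 0.46 to 1.67), or 2.09-fold, with an adjusted p of 0.0465. The adjusted p was 0.202 and 0.318 without the first or the second M-CSF M2 array, 0.0591 without the filter on dim genes, 0.0553 after quantile normalization and 0.0787 with trended and robust variances. Without the first GM-CSF M1 array the difference was 0.72 (adjusted p = 0.00478).

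Bgn, encoding biglycan, a relative of decorin that also binds collagen and can signal through Toll-like receptors, had the opposite order. It read 6.11 and 5.52 in GM-CSF M1 cells, against 6.94 and 6.19 in M-CSF M2 cells. The lower M-CSF M2 array stood 0.085 above the higher GM-CSF M1 array, and the difference of -0.75 ± 0.29 did not pass (adjusted p = 0.170). The Bgn difference was -1.04 without the first GM-CSF M1 array and -0.38 without the first M-CSF M2 array. Its GM-CSF M1 mean of 5.82 was under the background reference. Lum, encoding lumican, was at 3.97 and 3.93 in GM-CSF M1 cells and 3.93 and 3.71 in M-CSF M2 cells, under the background reference in all 4 arrays. Dcn and Lum are neighbours in the RefSeq gene table (assembly GRCm38.p6).

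Sparc, a collagen-binding matricellular protein, read 6.63 and 6.43 in GM-CSF M1 cells, against 6.85 and 6.74 in M-CSF M2 cells. The groups did not overlap, and the difference of -0.27 ± 0.12 did not pass (adjusted p = 0.238; -0.17 without the second GM-CSF M1 array). Postn, encoding periostin, read 4.90 and 4.54 in GM-CSF M1 cells and 5.21 and 5.15 in M-CSF M2 cells, all under the background reference.

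**Figure D2:**
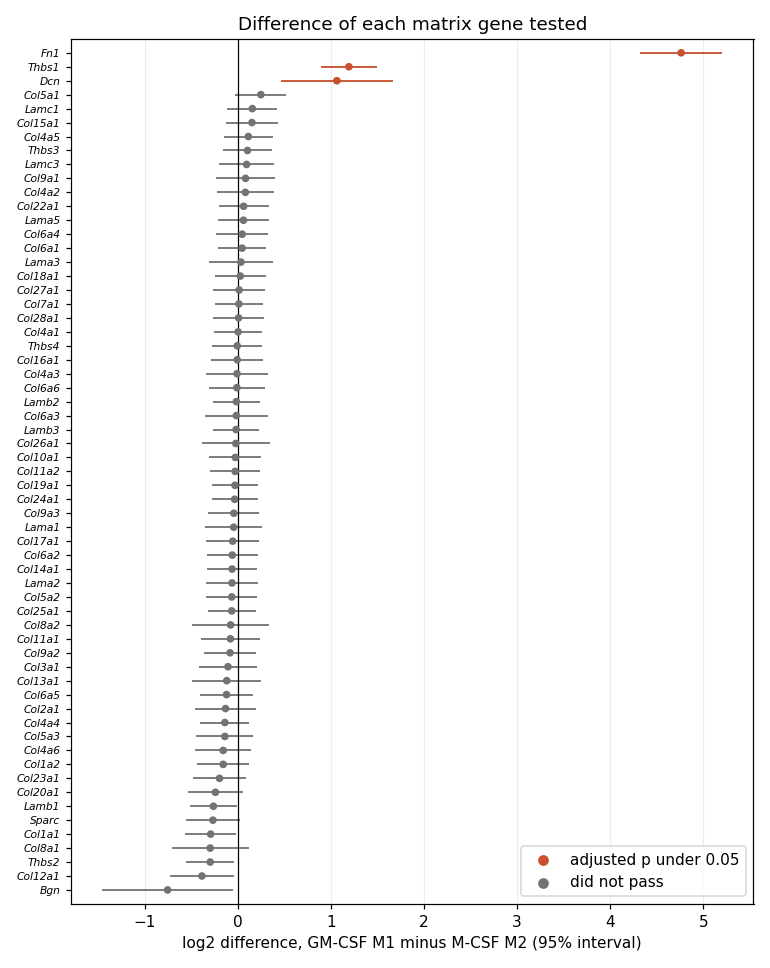
log2 difference (GM-CSF M1 minus M-CSF M2, horizontal axis) of each of the 61 matrix genes tested (rows, sorted), with its unadjusted 95% interval from limma; orange marks an adjusted p under 0.05. Fn1, Thbs1 and Dcn lie to the right at 4.76, 1.19 and 1.07, and the other 58 genes lie between -0.75 and 0.25.

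No collagen gene passed in either direction among the 44 tested; before adjustment, none was higher and 2, Col1a1 and Col12a1, were lower at p under 0.05. Over all genes, 10.7% passed, 6.18% as higher and 4.53% as lower, and before adjustment 25.5% were at p under 0.05, with 12.6% lower. The median difference of the collagens was -0.037, beside -0.013 for all genes tested. Differences ran from -0.38 (Col12a1) to 0.25 (Col5a1), and 41 of 44 were under 0.25 in size, against 10109 of all 14995 genes tested. The unadjusted 95% interval lay within 2-fold in both directions for all 44 genes and within 1.5-fold for 42. Of all 14995 genes tested, 10343 had an interval within 1.5-fold. Over all tested members, 93.4% of intervals lay within 2-fold, against 89.7% of all genes. These bounds apply to RMA values, which compress differences of dim genes, and collagen values in single arrays lay between 5.06 and 7.38. Collagen means were above the background reference for 34 genes in GM-CSF M1 cells and 35 genes in M-CSF M2 cells. Whether these probe sets detected transcript was not tested.

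Fibrillar collagens are the rope-like collagens of bone, tendon, skin and cartilage, and 11 of their genes were tested. Col1a1, encoding the main chain of type I collagen, read 6.97 and 6.96 in GM-CSF M1 cells, against 7.17 and 7.34 in M-CSF M2 cells. The groups did not overlap, and the difference of -0.29 ± 0.11 did not pass (adjusted p = 0.176). Its partner chain gene Col1a2 read 6.67 and 6.82 in GM-CSF M1 cells and 6.84 and 6.96 in M-CSF M2 cells, a difference of -0.16 (adjusted p = 0.482). Col3a1, the type III collagen gene of distensible tissue, read 6.48 and 6.48 in GM-CSF M1 cells and 6.44 and 6.73 in M-CSF M2 cells, with overlapping groups and a difference of -0.10 (adjusted p = 0.701).

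Among the minor fibrillar collagens, Col5a1, whose type V chain helps to start fibrils, had the highest difference of any collagen. It read 6.67 and 6.82 in GM-CSF M1 cells, against 6.45 and 6.54 in M-CSF M2 cells, a difference of 0.25 ± 0.11 (adjusted p = 0.235). Its partner genes Col5a2 and Col5a3 differed by -0.063 and -0.14. The cartilage collagen genes Col2a1, Col11a1 and Col11a2 differed by -0.13, -0.078 and -0.027, and Col24a1 and Col27a1 by -0.033 and 0.016. None of these passed, and the median over the 11 fibrillar genes was -0.078.

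The 6 type IV collagen genes, which encode the network of basement membranes, had a median difference of -0.0011. None of the 6 passed the threshold, beside 10.7% of all genes tested. Col4a1 read 6.29 and 6.34 in GM-CSF M1 cells, against 6.27 and 6.35 in M-CSF M2 cells. Its neighbour and partner chain gene Col4a2 read 6.09 and 6.27 in GM-CSF M1 cells, against 6.01 and 6.19 in M-CSF M2 cells. The arrays of the groups overlapped for both genes, whose differences were 0.0048 and 0.083. Col4a3, Col4a4, Col4a5 and Col4a6 differed by -0.0069, -0.14, 0.11 and -0.16, and none passed.

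Type VI collagen forms beaded filaments around cells, and macrophages have been described as one of its sources. Col6a1, Col6a2 and Col6a3, encoding its classical chains, differed by 0.048, -0.058 and -0.015. Col6a5, Col6a6 and Col7a1, the last of these encoding the anchoring fibrils of skin, differed by -0.12, -0.0087 and 0.013. The arrays of the groups overlapped for all 7 genes of types VI and VII, whereas for 55.4% of all genes tested they did not.

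The remaining 20 collagen genes had a median difference of -0.047. The lowest belonged to Col12a1, whose product associates with fibril surfaces, at 5.34 and 5.06 in GM-CSF M1 cells, against 5.48 and 5.68 in M-CSF M2 cells. These values were under the background reference, and the difference of -0.38 ± 0.14 did not pass (adjusted p = 0.153), but did without the first GM-CSF M1 array, at -0.52 (adjusted p = 0.0173). The genes of the basement membrane zone collagens Col15a1 and Col18a1, whose products can be cut into anti-angiogenic fragments, differed by 0.15 and 0.028. The brightest of the 20, Col9a2, which encodes a cartilage collagen chain, read 7.17 and 7.28 in GM-CSF M1 cells and 7.38 and 7.23 in M-CSF M2 cells, with overlapping groups and a difference of -0.081.

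Most collagen genes also differed one way between the arrays of a group. The second array was above the first for 34 of 44 collagen genes in GM-CSF M1 cells and for 41 in M-CSF M2 cells, by a median of 0.096 and 0.14. In both pairs at once this held for 31 collagen genes (70.5%), against 25.9% of all genes tested. Of the lists described below, it held for 8 of 11 basement membrane partner genes and 6 of 10 fibroblast and stromal markers. It held for 19 of 50 other matrix glycoprotein and proteoglycan genes and for 2 of 10 laminin genes. The counts for these lists and the laminins include genes that did not pass the filter on dim genes, unlike the share of all genes tested. The mean over the 44 genes was 6.26 and 6.32 in the GM-CSF M1 arrays and 6.27 and 6.41 in the M-CSF M2 arrays, so the groups overlapped. Of the 44 genes, 10 (22.7%, against 55.4% of all genes) had arrays that did not overlap between groups, 3 with GM-CSF M1 above and 7 with M-CSF M2 above.

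In the RefSeq table there were 9 pairs of members with no other protein-coding gene starting between them, Col4a1 with Col4a2, Col6a2 with Col6a1 and Col3a1 with Col5a2 among them. In 8 of these pairs neither gene passed, which only restates that no collagen passed, since both genes of each were collagens. The other pair is Dcn with Lum, which was not tested. The pairs therefore add no information on neighbouring genes.

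No laminin gene passed among the 9 tested, beside 10.7% of all genes tested, and the median difference was -0.014. Laminins are trimers of an alpha, a beta and a gamma chain. Lamc1, encoding the gamma chain common to most laminins, was the brightest at 7.66 and 7.77 in GM-CSF M1 cells, against 7.61 and 7.51 in M-CSF M2 cells. The groups lay 0.051 apart at their nearest arrays, and the difference of 0.16 ± 0.11 did not pass (adjusted p = 0.452). Lamb1, the beta chain gene often found with it, read 5.49 and 5.42 in GM-CSF M1 cells, against 5.70 and 5.73 in M-CSF M2 cells. That difference of -0.26 ± 0.10 did not pass (adjusted p = 0.183), and all 4 values were under the background reference. The alpha chain genes Lama1 and Lama5 differed by -0.043 and 0.062, the beta chain genes Lamb2 and Lamb3 by -0.014 and -0.017, and Lamc3 by 0.096. Alpha chain genes Lama2, Lama3 and Lama4 had group means under the background reference.

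**Figure D3:**
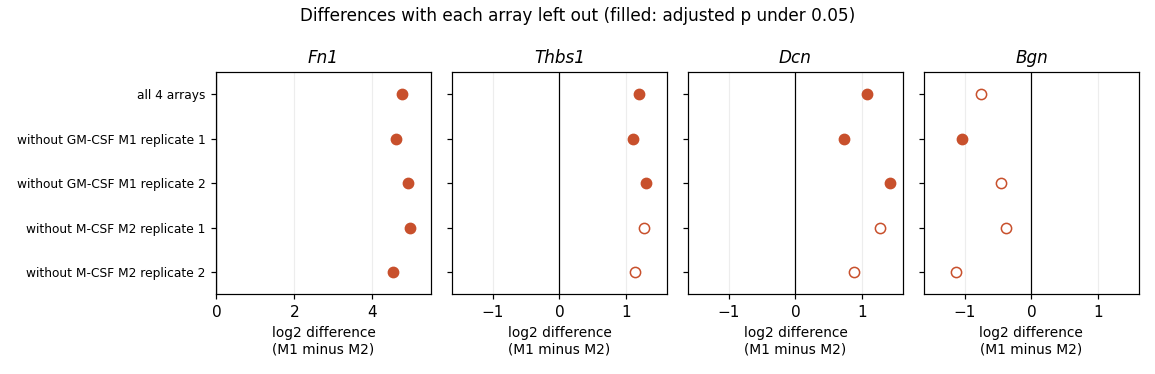
log2 difference (GM-CSF M1 minus M-CSF M2, horizontal axis; the Fn1 panel has its own scale) with all 4 arrays and with each array left out (rows); filled points have an adjusted p under 0.05. Fn1 keeps its call in all 4 fits with an array left out (4.55 to 4.98), Thbs1 and Dcn lose theirs without either M-CSF M2 array, and Bgn passes in 1 of the 4, without the first GM-CSF M1 array, at -1.04.

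Enzymes, receptors and other proteins that make, bind or accompany these matrix proteins were taken as 4 further lists. Of 95 such genes tested, 14 were higher and 7 lower, and these 21 are 22.1% of them, against 10.7% of all genes. How many of these genes were called also depended on which array was left out, as it did over all genes (given below).

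Enzymes that modify, fold or crosslink collagen changed in both directions, with 6 of 23 tested genes higher and 2 lower. Of all genes tested, 6.18% were higher and 4.53% lower. Tgm2, the tissue transglutaminase that crosslinks fibronectin among other proteins, read 10.53 and 10.55 in GM-CSF M1 cells, against 9.34 and 9.22 in M-CSF M2 cells. Its difference was 1.26 ± 0.11 (adjusted p = 0.00136). Plod3, a lysyl hydroxylase that also glycosylates collagen, was higher by 1.02 (adjusted p = 0.00694). The prolyl 3-hydroxylase P3h2 was higher by 0.79 (adjusted p = 0.0274) and the collagen galactosyltransferase Colgalt1 by 0.75 (adjusted p = 0.00954). Lower were Loxl3, a lysyl oxidase-like crosslinking enzyme (difference -0.89, adjusted p = 0.0435), and Pcolce, which enhances procollagen cleavage (difference -0.50, adjusted p = 0.0487). The M-CSF M2 values of P3h2 were under the background reference. Loxl3 and Pcolce did not pass without the filter on dim genes (adjusted p = 0.0562 and 0.0684), nor Loxl3 after quantile normalization (adjusted p = 0.0530), and its difference was -0.58 without the first GM-CSF M1 array.

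Cell-surface receptors for matrix proteins also split, with 4 of 31 tested genes higher and 4 lower, against 6.18% and 4.53% of all genes tested. Itga5, the alpha subunit of the classical fibronectin receptor, read 10.37 and 10.89 in GM-CSF M1 cells, against 9.80 and 9.81 in M-CSF M2 cells, a difference of 0.83 (adjusted p = 0.0384, and 0.0501 without the filter on dim genes). Its beta subunit gene Itgb1 read 10.09 and 10.24 in GM-CSF M1 cells and 10.19 and 10.16 in M-CSF M2 cells and did not pass (adjusted p = 0.965). The thrombospondin-1 receptor genes Cd36 and Cd47 differed by 0.38 and -0.17 and did not pass (adjusted p = 0.254 and 0.415). Itgb1, Cd36 and Cd47 were chosen after their values were seen.

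Itga1, a collagen-binding integrin subunit, had the largest difference among the receptors that were higher. It read 8.52 and 6.94 in GM-CSF M1 cells, against 4.85 and 4.98 in M-CSF M2 cells, where it was under the background reference. The difference was 2.81 ± 0.46 (adjusted p = 0.0152), and 2.02 without the first GM-CSF M1 array. The heparan sulphate proteoglycan Sdc1 was higher by 2.34 (adjusted p = 0.0148) and Itgb5, which pairs with the alpha V integrin subunit, by 0.47 (adjusted p = 0.0394). With trended and robust variances Itga1 and Sdc1 did not pass (adjusted p = 0.145 and 0.115), and without the filter on dim genes Itgb5 did not (adjusted p = 0.0580).

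Among the lower receptors, Itga9, an integrin subunit that binds tenascin and osteopontin, read 5.59 and 7.53 in GM-CSF M1 cells, against 9.14 and 9.10 in M-CSF M2 cells. Its difference was -2.56 ± 0.56 (adjusted p = 0.0389), and -1.59 without the first GM-CSF M1 array. The call was lost with trended and robust variances (adjusted p = 0.254) and after quantile normalization (0.0509). Also lower were the laminin-binding integrin subunit Itga6 (difference -1.34, adjusted p = 0.00421) and the heparan sulphate proteoglycan Sdc2 (difference -1.05, adjusted p = 0.00263), with all 4 Sdc2 values under the background reference. Rpsa, a ribosomal protein gene also described as a laminin receptor, was lower (difference -0.89, adjusted p = 0.00625).

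**Figure D4:**
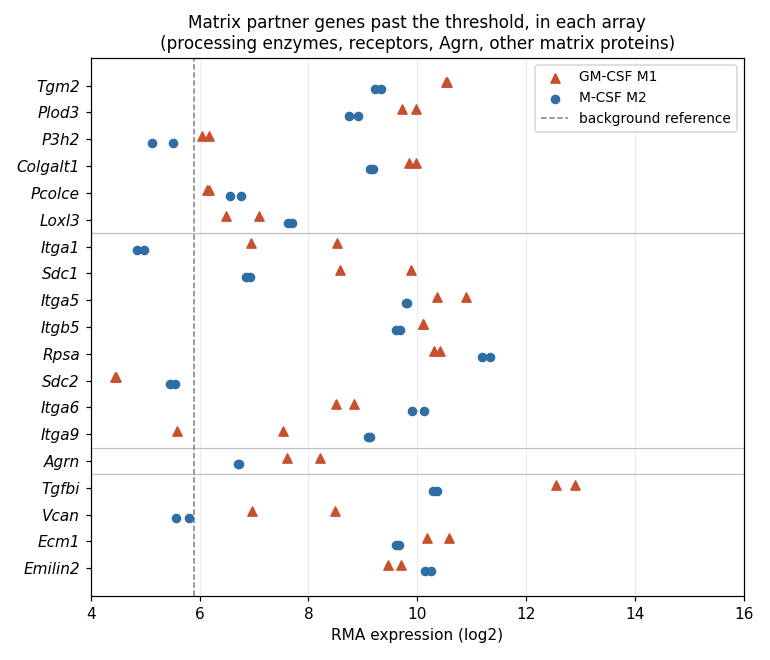
RMA expression (log2, horizontal axis) in each array for the named matrix partner genes past the threshold (rows, in 4 lists separated by lines), with triangles for GM-CSF M1, circles for M-CSF M2 and a dashed line at the background reference of 5.90. Tgfbi reads 12.55 and 12.90 in GM-CSF M1 cells and 10.36 and 10.30 in M-CSF M2 cells, and the GM-CSF M1 arrays of Itga1, Itga9 and Vcan lie far apart.

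Of 9 basement membrane partner genes tested, Agrn, the heparan sulphate proteoglycan agrin, was higher by 1.19 (adjusted p = 0.0157), and none was lower. Among 32 other matrix glycoprotein and proteoglycan genes, 3 were higher and 1 was lower. Over all genes tested, 10.7% passed in either direction. Tgfbi, encoding a secreted protein that binds collagens and integrins, differed by 2.39 ± 0.14 (adjusted p = 0.000467). It kept its call with each array left out. Vcan, the large proteoglycan versican, read 8.49 and 6.95 in GM-CSF M1 cells, against 5.56 and 5.82 in M-CSF M2 cells. Its difference of 2.04 ± 0.46 (adjusted p = 0.0410) was 1.27 without the first GM-CSF M1 array, and both M-CSF M2 values were under the background reference. The Vcan call was lost without the filter on dim genes (adjusted p = 0.0512), after quantile normalization (0.0502) and with trended and robust variances (0.221). Ecm1 was higher by 0.74 (adjusted p = 0.0352), and Emilin2, an elastin-associated glycoprotein, was lower (difference -0.62, adjusted p = 0.0304).

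Markers of other cells that make matrix were read beside these results. Of 10 fibroblast and stromal marker genes measured, 6 were tested and none passed, with 2 higher and 1 lower at an unadjusted p under 0.05 in limma. The mean over the 10 genes was 5.53 and 5.51 in the GM-CSF M1 arrays and 5.34 and 5.41 in the M-CSF M2 arrays. The highest difference was that of Pdgfrb, a receptor of pericytes and fibroblasts, at 0.57 (adjusted p = 0.0572), and the fibroblast gene Dpt lay between 3.79 and 4.02 in all 4 arrays. Acta2, the smooth muscle actin gene, read 8.33 and 8.09 in GM-CSF M1 cells, against 7.85 and 7.58 in M-CSF M2 cells (adjusted p = 0.0913). Thy1 read 7.10 and 6.24 in GM-CSF M1 cells, against 6.20 and 6.09 in M-CSF M2 cells (adjusted p = 0.291). Neither passed, and in both genes the groups did not overlap, as in 55.4% of all genes tested. Pdgfra (difference -0.29, adjusted p = 0.17) and Prrx1 (difference -0.37, not tested) went the other way, without overlap and with group means under the background reference. The stromal markers named were chosen after their values were seen. Removing either GM-CSF M1 array, median centring or trended variances gave 1 to 3 higher calls in the list. Of 2 osteoblast genes tested none passed, and of 3 endothelial genes Kdr was higher by 1.71 (adjusted p = 0.00432) and Pecam1 lower (difference -1.56, adjusted p = 0.00122). The M-CSF M2 values of Kdr, 5.48 and 5.26, were under the background reference, and it did not pass without either M-CSF M2 array. The part of these cells in the Fn1 and Dcn differences was not tested.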

How the data were processed

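Per the labels' protocols, 300 ng of total RNA per sample was amplified, biotin-labelled and read on single-colour Affymetrix arrays. The authors deposited 1 log2 value per probe set and array. The submitters' processing notes name RMA and Affymetrix Expression Console 1.1. RMA subtracts background, equalises array distributions and summarises probes, so it compresses differences of dim genes. The files used here held no detection calls, scan dates or batches, and the number of arrays limits the precision.

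Of 35556 probe sets, 21789 had exactly 1 symbol in the platform annotation, 1621 had several and were not named, and 12146 had none listed; 21698 matched the RefSeq table (GRCm38.p6) by gene ID. Each of 19938 genes was represented by its probe set with the highest mean. Genes with at least 2 of 4 arrays above the array's 30th percentile were tested (14995), by the two-sided moderated test of limma 3.58.1 (lmFit, then eBayes; R 4.3.3) with Benjamini-Hochberg adjustment at 0.05. Folds are powers of the log2 difference. Tables and plots used Python 3.11.15, pandas 2.3.3 and matplotlib 3.10.9, and the fit was tested on simulated data.

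The members, lists and background reference were chosen with earlier results of these data known. The text names members past the threshold, members with a group mean above the background reference (some only in the plots), a fixed set of well-known members, and up to 4 called genes per partner list and direction. Alternatives were other filters, normalizations, probe set rules, variance settings, thresholds, a replicate block and leaving out each array.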

Additional observations from a re-analysis of the deposited data

How the results depend on the processing

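Fn1 was called under all 7 other settings of filter, normalization, probe set rule, variance or replicate block, and so was Thbs1; Dcn was called under 4 of 7. Leaving out each array in turn gave 1 to 5 matrix genes past the threshold, against 3 with all arrays, 1 to 32 partner genes against 21, and 233 to 3205 of all genes against 1605. Without either M-CSF M2 array the spread came from the wider GM-CSF M1 pair alone, and without either GM-CSF M1 array from the narrower M-CSF M2 pair alone; the single array left was assumed to vary like the other group. At an adjusted p of 0.01 the count over all genes was 661. With the replicate number as a block, 1640 genes and 4 matrix genes were called, the fourth being Bgn (adjusted p = 0.0156). Pcolce (0.0614) and Itgb5 (0.0573) lost their calls with the block, and 1 fibroblast and stromal marker gained one. Deviations of same-numbered arrays correlated at 0.065 over 2 pairs, so the numbers do not establish a pairing. For single genes, 254 values kept their direction and call, 3 gained a call, 56 lost one, and 0 reversed. With 2 arrays per group, the smallest difference called in any gene was 0.43 on the log2 scale, so smaller differences of collagens and laminins were not detectable here. Larger differences could also fail to pass where the scatter was wider, as that of Bgn (-0.75) did without the block.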

Other observations

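Some further matrix genes differed between the 2 GM-CSF M1 arrays by more than many group differences, and are named here after their values were seen. Ccn3, a matricellular gene, read 9.39 and 5.95 in GM-CSF M1 cells, against 5.58 and 5.51 in M-CSF M2 cells, so that its difference of 2.12 rested on 1 array and did not pass (adjusted p = 0.249). Lox, the lysyl oxidase that crosslinks collagen and elastin, read 10.84 and 11.67 in GM-CSF M1 cells, against 10.39 and 10.38 in M-CSF M2 cells. The groups did not overlap, and the difference of 0.87 did not pass (adjusted p = 0.0920).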
